A study of Mus musculus with 5 samples.

Results

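The wide *Paupar* peaks are the 506 intervals longer than 1000 bp among the 2849 genomic binding sites that the authors deposited for the long non-coding RNA *Paupar*. They were selected on width alone, so that width and everything that goes with it by construction are described here without a test, and they were set against the 2343 peaks of at most 1000 bp, called narrower peaks. Binding was measured by CHART-Seq in N2A (neuro 2A) cells, a mouse neuroblastoma line, with no treatment. CHART-Seq pulls an RNA and the chromatin attached to it out of crosslinked cells with biotinylated DNA oligonucleotides of complementary sequence, and the recovered DNA is sequenced. There were 2 *Paupar* pull-downs, made with a mix of 4 capture oligonucleotides, 2 control pull-downs made with an oligonucleotide to the bacterial *LacZ* sequence, and 1 input DNA library from the same cell line. The deposited list is a single one for all these libraries. Each interval carries a score, and there is no value per library, so no peak has a replicate error here, the depth is unknown, and the tests below take peaks, not libraries, as the units. N2A identity could not be checked against marker genes in a list of intervals.

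*Paupar* is transcribed next to *Pax6*, which encodes a paired and homeodomain transcription factor of the developing brain, eye and pancreas. Long non-coding RNAs that stay in the nucleus can be found at chromatin far from their own gene, and CHART retrieves direct and indirect contacts alike. The width of a peak in such data is the stretch of genome over which recovered fragments pile up above the control.

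The capture oligonucleotides are shown because their sequence is compared with the DNA under the peaks below.
PauparCHART254: ggcttaagtccacccctggattcg
PauparCHART428: gcctggaactagatcaaggcagag
PauparCHART2041: ctctcagaaactgcgatacaaaag
PauparCHART2067: gaggcctagtcaaaatatctccac
LacZ control: catgattacggattcactggccgtc

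The centre of the widest peak is shown because it is also the peak with the highest score, and the centre of the peak with the next highest score follows it. Both stretches are 200 bp of mm9 read on the plus strand. Capitals mark letters of the transcription factor motifs that were searched: an AP-1 motif (TGANTCA) in the first and a SOX motif in the second.
Scn8a, chr15:100749756-100749955: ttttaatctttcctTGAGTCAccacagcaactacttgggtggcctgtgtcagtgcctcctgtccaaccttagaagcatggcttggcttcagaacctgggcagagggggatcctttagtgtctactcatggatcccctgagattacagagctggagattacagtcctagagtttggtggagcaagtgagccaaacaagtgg
Peg10, chr6:4712766-4712965: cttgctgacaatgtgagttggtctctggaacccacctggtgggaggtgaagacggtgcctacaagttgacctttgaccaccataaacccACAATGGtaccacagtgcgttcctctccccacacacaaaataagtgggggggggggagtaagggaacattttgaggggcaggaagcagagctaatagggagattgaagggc

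The next stretches are shown because they come from wide peaks built of tandem copies of a short unit. Each is a run of 3 consecutive copies on the plus strand of mm9, with the first copy in capitals. The unit is 31 bp in the peaks at *Gm17379* and 19 bp near *Gm7157*.
Gm17379, chrX:166431758-166431850: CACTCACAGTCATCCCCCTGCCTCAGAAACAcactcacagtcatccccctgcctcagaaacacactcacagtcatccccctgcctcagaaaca
Gm7157, chrX:149021182-149021238: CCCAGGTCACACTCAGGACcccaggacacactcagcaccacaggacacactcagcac

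The wide peaks were 17.8% of the list and held 43.1% of its length, 915781 of 2122386 bp. Their widths ran from 1001 to 9443 bp with a median of 1443 bp and an interquartile range of 1163 to 2046 bp. Most were thus not far above the limit, while 133 exceeded 2000 bp and 8 exceeded 5000 bp. The narrower peaks had a median width of 484 bp. The limit fell in the upper part of a continuous distribution, in which the third quartile of all peaks was 837 bp. The 5 peaks just above the limit were 1001 bp (*Fhit*, score 10.52), 1001 bp (*Hapln1*, 56.69), 1003 bp (*Dip2c*, 10.31), 1003 bp (*Irgq*, 19.79) and 1003 bp (*Cacna1i*, 11.76) wide. The 5 just below were 1000 bp (*Spns3*, score 22.36), 997 bp (*Ptges3*, 23.51), 997 bp (*Blcap*, 10.92), 996 bp (*Ccdc6*, 10.37) and 995 bp (*Lace1*, 44.2) wide. The scores on both sides of the limit overlapped.

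The scores of the wide peaks had a median of 20.7, an interquartile range of 13.3 to 32.8 and extremes of 6.37 and 305.37, and those of the narrower peaks a median of 11.9 and a maximum of 95.38. All 10 of the highest scores of the list and 64 of the 100 highest belonged to wide peaks. Width did not fix the score, since 50 wide peaks (9.88%) scored below 10, as did 784 narrower peaks (33.5%). Within the wide peaks width and score were related with a Spearman rho of 0.44 (n = 506 peaks that share the same libraries, given as a description). The score is of unstated kind and may depend on width by construction, so scores are given below as descriptions and no test compares them.

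**Figure D1:**
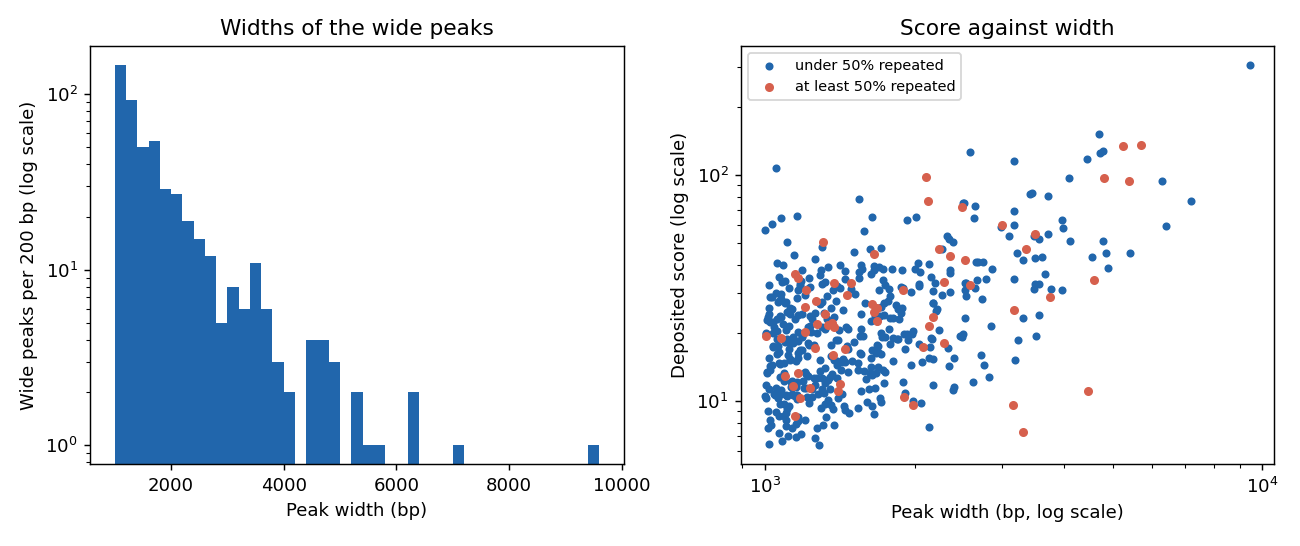
Left, number of wide peaks per 200 bp of width (logarithmic y axis), and right, deposited score against width for the 506 wide peaks (both axes logarithmic), with the peaks of which at least 50% of the central 500 bp lies in repeated 12-mers in orange. Widths fall off steadily from 1001 to 9443 bp, the widest peak also has the highest score of 305.37, and 61 peaks are orange.

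The widest peak lay on chromosome 15 from 100745135 to 100754577, in intergenic sequence 14004 bp upstream of the start of *Scn8a*, which encodes a voltage-gated sodium channel of neurons. It was 9443 bp long with a score of 305.37, and a second wide peak of 2618 bp (score 12.17) lay less than 1 kb from it. The domain of the neighbouring bicarbonate transporter gene *Slc4a8* held 3 wide peaks with a total width of 14233 bp. Next in width was a peak of 7198 bp (score 76.7) whose midpoint was 4702 bp upstream of *Glp1r*, the receptor of the incretin hormone GLP-1, on chromosome 17 from 31030484 to 31037681. It was followed by a peak of 6399 bp (score 59.21) 17924 bp upstream of *Gm853* on chromosome 4, one of 6294 bp (score 93.38) 29300 bp upstream of *1700026D08Rik* on chromosome 7, and one of 5692 bp (score 135.15) on chromosome 8, 147118 bp from the nearest protein-coding start. The other 5 of the 10 widest were 5425 bp (nearest start *Zfp68*, midpoint in a 3′ UTR, score 44.95), 5396 bp (*Gm17379*, 93.75), 5247 bp (*Mettl21d*, 133.32), 4887 bp (*Gm7120*, 38.85) and 4853 bp (*Tceal8*, 45.12). Only one of the 10, that of *Zfp68*, had its midpoint in an exon of a protein-coding gene.

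By score, the second wide peak was at *Peg10*, an imprinted retrotransposon-derived gene. It was 4697 bp long with a score of 151.88, on chromosome 6 from 4710518 to 4715214, and its midpoint was 15560 bp downstream of the gene start. The other high scores were 127.47 near *Plch2* (4776 bp), 126.43 upstream of *Myo16* (2587 bp), which encodes an unconventional myosin of neurons, 124.13 near *Gm4889* (4716 bp), 117.85 upstream of *Svop* (4443 bp), a synaptic vesicle protein, 114.93 near *Zfp36l2* (3166 bp), an RNA-binding protein that promotes mRNA decay, and 106.71 in an intron near *Zfp68* (1054 bp). The last of these was among the shortest wide peaks, ranked 468 in width and 10 in score. The one peak of the list on the mitochondrial chromosome was also wide, 1174 bp over *mt-Nd2* with a score of 32.26.

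The first comparison asked whether wide peaks lie in other parts of genes than narrower peaks. Midpoints were placed in 7 territories of the protein-coding genes, and shares were compared by a two-sided Fisher's exact test, with p-values adjusted over the 7 after Benjamini and Hochberg. Most wide peaks were in introns (224 of 506, 44.3%) or between genes (209, 41.3%), as were narrower peaks (43.7% and 41.9%). Upstream flanks of 5 kb held 6.13% of wide and 7.38% of narrower peaks, an odds ratio of 0.819 (95% interval 0.56 to 1.23, adjusted exact p = 0.801). Coding sequence held 13 wide midpoints (2.57%) and 24 narrower ones (1.02%), an odds ratio of 2.55 (1.32 to 5.07, adjusted exact p = 0.0495). No wide peak had its midpoint in a 5′ UTR, against 24 narrower peaks (1.02%, adjusted exact p = 0.0495). A count of 0 of 506 allows a share of up to 0.753%, the upper limit of the 95% Wilson interval. Both differences lay at the threshold. The coding sequence odds ratio was 2.51 when peaks scoring below 10 were left out (adjusted exact p = 0.0677), 2.55 without chromosome 8 (adjusted exact p = 0.0629) and 2.32 within quartiles of the score (adjusted p = 0.087, Mantel-Haenszel in place of the exact test), so that its size was similar and the call was lost. It rose to 4.24 with wide peaks above 1500 bp (adjusted exact p = 0.00461) and was 1.85 with a limit of 800 bp (adjusted exact p = 0.571). The 5′ UTR share of wide peaks was 0% in each of these settings except the limit of 800 bp (0.389% against 1.01%), and its call was lost in all 5.

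The 13 wide peaks centred on coding sequence had scores from 11.45 to 62.86. The highest was at *Ddo*, D-aspartate oxidase (3952 bp), followed by 53.75 over a coding exon whose nearest start was that of *Mrpl13* (3091 bp), 45.69 at the tRNA modification gene *Trmt12* (1511 bp) and 41.12 at *Swap70* (2656 bp). The lowest was at *Nefh*, the heavy chain of neurofilaments (1660 bp). Of these 13, 4 nuclear ones lay within 1 kb of a gene start: *Trmt12*, *1500002C15Rik*, *Galnt4* and *Cpsf4*.

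The distance to gene starts did not separate the classes. The midpoint was within 1 kb of the start of a protein-coding gene for 32 wide peaks (6.32%) and 167 narrower peaks (7.13%, odds ratio 0.88, 0.603 to 1.31, adjusted exact p = 0.565), and within 100 kb for 79.4% and 77.3% (odds ratio 1.13, 0.892 to 1.43, adjusted exact p = 0.561). The shares within 5 and 50 kb, 14.8% and 63% of wide peaks, differed from 16.4% and 61% by similarly small amounts. The median distance was 29692 bp for wide and 31902 bp for narrower peaks.

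**Figure D2:**
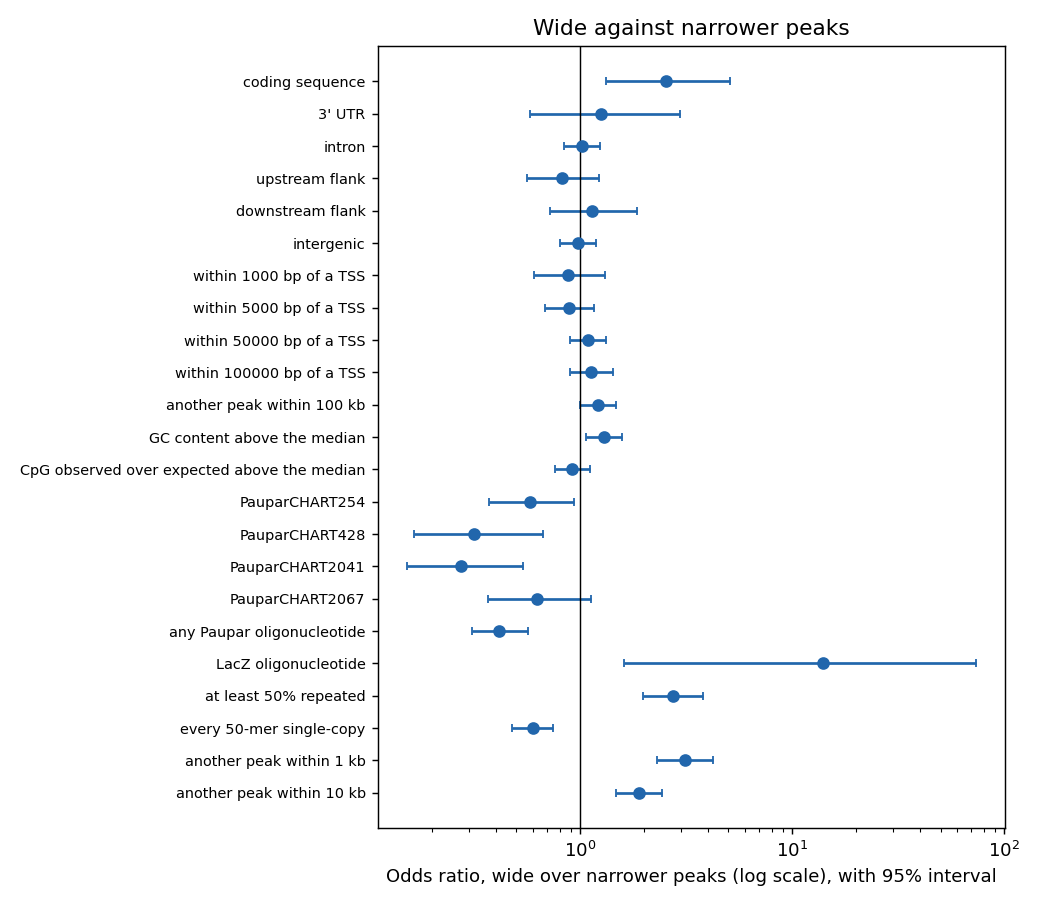
Odds ratios of wide over narrower peaks (points, logarithmic axis) with 95% intervals (bars) for territories, distances to a transcription start site (TSS), neighbouring peaks, base composition, capture oligonucleotide matches and repeats; the vertical line marks 1, and the 5′ UTR, with 0 wide peaks, is left out. Gene position stays near 1 apart from coding sequence (2.55), while matches to any *Paupar* oligonucleotide (0.415) lie to the left of 1 and repeats (2.73) and neighbours within 1 kb (3.11) to the right.

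The 32 wide peaks at gene starts were short for their class, from 1007 to 2385 bp with a median of 1274 bp, and had scores from 8.23 to 65.4 with a median of 23.7. In 17 of them the interval covered the start itself, and the midpoint was upstream of it in 16 and downstream in 16. By score they began with *Heatr6* (65.4), *Foxa3*, a forkhead factor of endoderm and liver (50.37, the widest at 2385 bp), *Rtn2*, a reticulon of the endoplasmic reticulum (46.73), *Trmt12* (45.69), *1500002C15Rik* (39.77), *Nqo1*, a quinone reductase (38.17), *Hax1* (33.84), *mt-Nd2* (32.26), *Chd2*, a chromatin remodeller (31.62) and *Clcn4-2*, a chloride transporter (31). Scores from 20.1 to 28.95 were found at *Gm9874*, *Cbr2*, *BC100451*, *6530418L21Rik*, *Acy1*, *Pppde1*, *Zscan22*, *Map4k1*, *Frmd4a*, *Sfi1* and *Trim32*. The lowest 11, from 8.23 to 18.43, included those at *Spnb4*, *Apol7a*, *Galnt4*, *Tex13*, *Cpsf4*, *Gucy1b2*, *Eno3*, *Slc5a11*, *Uros* and *Ppil4*. They included cytoskeletal (*Spnb4*, a spectrin) and glycolytic (*Eno3*, an enolase) genes. In 3 of the 32 at least 50% of the centre was repeated sequence.

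The centre of the highest-scoring of these peaks is shown to let its composition be read. Its midpoint lies 628 bp upstream of the start of *Heatr6*, so the stretch is not the start itself. The stretch holds none of the motifs searched.
Heatr6, chr11:83566470-83566669: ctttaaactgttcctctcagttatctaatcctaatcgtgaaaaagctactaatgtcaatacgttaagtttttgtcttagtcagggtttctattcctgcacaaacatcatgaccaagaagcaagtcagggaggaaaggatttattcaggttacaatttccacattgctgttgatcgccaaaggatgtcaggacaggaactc

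Wide peaks were spread over the chromosomes much as narrower ones. Of the 20 chromosomes with at least 20 peaks, none differed after adjustment, and the lowest unadjusted exact p was 0.0196 for the X chromosome (11 wide and 21 narrower peaks, odds ratio 2.46, 1.22 to 5.16, adjusted exact p = 0.324). Of the 11 wide peaks on X, 5 are neighbours at a single locus, *Gm17379*. Chromosome 18 had 16 wide and 39 narrower peaks (odds ratio 1.93, 1.1 to 3.51, adjusted exact p = 0.324). Chromosome 8, which holds the most peaks, had 52 wide ones, or 10.3% against 10.2% of narrower peaks (odds ratio 1.01, 0.74 to 1.39).

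Wide peaks more often had another peak within 10 kb. One lay within 100 kb of 231 wide peaks (45.7%) and 958 narrower peaks (40.9%, odds ratio 1.21, 1 to 1.47, Fisher's exact p = 0.0525), which did not pass the threshold. That odds ratio was 1.16 among peaks with a score of at least 10 (exact p = 0.179) and 1.13 within quartiles of the score (p = 0.23, Mantel-Haenszel in place of the exact test), and it passed at other width limits and without chromosome 8. At 10 kb the shares were 19.8% and 11.5% (odds ratio 1.89, 1.47 to 2.44, exact p = 1.8e-06), and at 1 kb, a distance chosen after seeing the data, 15% and 5.38% (odds ratio 3.11, 2.3 to 4.21, exact p = 2.7e-12). The comparisons at 10 and 1 kb were not repeated within quartiles of the score or at a score of at least 10. The peaks within 1 kb formed 96 runs, of which 57 held a wide peak, 76 wide and 48 narrower peaks in all, and 18 held at least 2 wide ones.

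The run with the most peaks, 4 over 8729 bp, lay near *Zfp68*, a zinc finger gene (the *Scn8a* run of 2 peaks spanned more, 12403 bp), with widths of 5425, 1054, 795 and 589 bp and scores of 44.95, 106.71, 28.26 and 11.48. The highest score of the run thus belonged to its second peak and not to the widest. Runs of 3 peaks lay at *Peg10* (4697, 412 and 2491 bp), near *Gm4889* (411, 4716 and 1075 bp) and near *Zfp36l2* (979, 3166 and 645 bp), each with 1 peak of high score (151.88, 124.13 and 114.93) and others of 7.7 to 64.44. At *Gm17379*, 5 wide peaks lay within 2 runs, of 2131 and 5396 bp and of 2489, 4807 and 2104 bp, with scores from 71.63 to 97.29. No other gene had as many wide peaks in its regulatory domain.

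**Figure D3:**
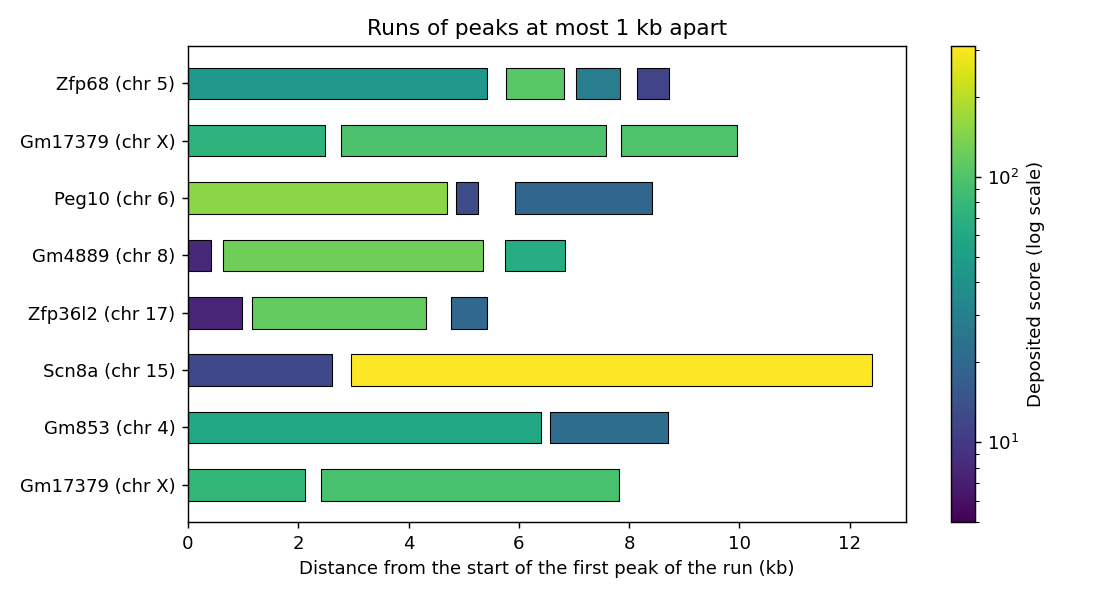
Runs of peaks at most 1 kb apart, drawn to scale as distance in kb from the start of the first peak of each run, named by the nearest gene and coloured by deposited score (logarithmic scale). The *Scn8a* run ends in the peak of 9443 bp, the runs of *Zfp68*, *Peg10* and *Zfp36l2* join 1 long peak with shorter ones, and both *Gm17379* runs consist of wide peaks.

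The central 500 bp of wide peaks were slightly richer in GC, with a median of 48.4% against 47.4%. GC content was above the median of all peaks in 275 wide (54.3%) and 1119 narrower peaks (47.8%, odds ratio 1.3, 1.07 to 1.58, adjusted exact p = 0.0161). The difference did not pass the threshold among peaks with a score of at least 10 (odds ratio 1.12) or within quartiles of the score (1.26). CpG observed over expected was above the median in 48.2% of wide and 50.4% of narrower peaks (odds ratio 0.918, 0.758 to 1.11, adjusted exact p = 0.405).

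The centres of wide peaks matched the capture oligonucleotides less often. A centre here is the 500 bp around the midpoint of the interval, which need not be the point of highest signal. It takes in about the whole of a typical narrower peak (median width 484 bp) but only a part of a wide one (median 1443 bp). The shares thus compare unlike parts of the peaks. A stretch of at least 10 nt identical to one of the 4 *Paupar* oligonucleotides, on either strand, was found in the central 500 bp of 52 wide peaks (10.3%) and 507 narrower peaks (21.6%), an odds ratio of 0.415 (0.309 to 0.565, adjusted exact p = 4.5e-09). Windows of 500 bp placed 1 kb outside the peaks held a match in 7.71% of wide and 6.66% of narrower peaks' windows. The centres of narrower peaks thus exceeded their surroundings by more than those of wide peaks did. The difference was found for 3 of the 4 oligonucleotides: PauparCHART2041 matched 1.98% and 6.87% (odds ratio 0.273, 0.152 to 0.538, adjusted exact p = 1.3e-05), PauparCHART428 1.58% and 4.87% (0.314, 0.164 to 0.671, adjusted exact p = 7.8e-04) and PauparCHART254 4.15% and 6.96% (0.579, 0.373 to 0.936, adjusted exact p = 0.0256). For PauparCHART2067 the shares were 2.77% and 4.35% (0.625, 0.368 to 1.13, adjusted exact p = 0.108). The *LacZ* oligonucleotide matched 3 wide peaks (0.593%) and 1 narrower peak (0.0427%, adjusted exact p = 0.0256), and in the outside windows its share was 0.593% for wide and 0.469% for narrower peaks. The list holds only peaks that were found against the *LacZ* pull-downs, a filter that bears on this comparison and whose effect was not tested. The odds ratio of 14 rests on 4 peaks. It was 9.31 without chromosome 8 (adjusted exact p = 0.0998) and 10.3 at a score of at least 10 (adjusted exact p = 0.0575), and with matches of at least 9 nt it fell to 1.47 (2.17% and 1.49%, adjusted exact p = 0.249). The 3 wide peaks with a *LacZ* match were those near *E330034G19Rik*, at *Apol7a* and near *Tacc1*.

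In the central 200 bp the shares were 3.36% and 11.5% (odds ratio 0.268, adjusted exact p = 8.8e-09). Over the whole interval, which is longer in wide peaks by definition, 33% of wide and 22.7% of narrower peaks held a match, given as a description with no test. Per length of interval, wide peaks held 0.281 matches per kb and narrower peaks 0.529, against 0.188 and 0.16 per kb in the outside windows. Among the wide peaks' outside windows, those of 1 peak on chromosome 18 gave 90 of the 344 matches, and without it the value was 0.139 per kb. In 5 equal successive parts of the interval the wide peaks held 18.7%, 17.9%, 18.7%, 26.5% and 18.3% of their 257 matches, with the most in the fourth part. The narrower peaks held 17.9%, 20.1%, 24%, 22.6% and 15.5% of their 638, with the most in the third. Single peaks weigh on these shares, since *L3mbtl1* held 16 and *Prkaa1* 12 of the 257. Whether hybridisation of the oligonucleotides to DNA has a part in either class was not tested.

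**Figure D4:**
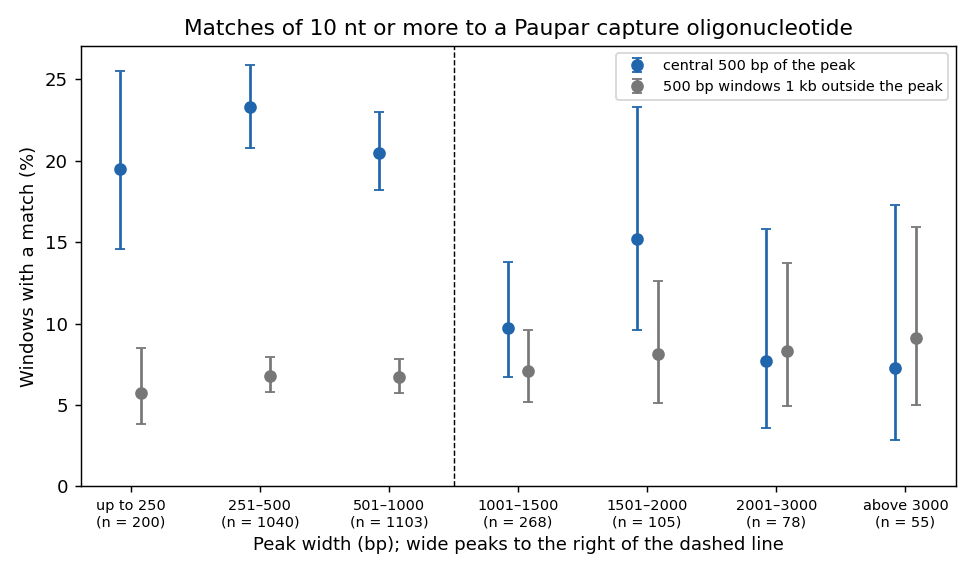
Share of central 500 bp windows (blue) and of 500 bp windows 1 kb outside the peaks (grey) with a match of at least 10 nt to a *Paupar* capture oligonucleotide, by class of peak width, with 95% Wilson intervals and the number of peaks per class. Narrower classes lie between 19.5% and 23.3%, wide ones between 7.27% and 15.2%, and the outside windows between 5.75% and 9.09% throughout.

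Matches were short. A match of at least 10 nt was present somewhere in 167 wide peaks, one of at least 11 nt in 45, one of at least 12 nt in 10 and one of 13 nt in 1. The longest are printed with the match in capitals and 20 bases on each side, read on the strand that carries the oligonucleotide's letters (the minus strand of mm9). The single 13-nt match, to PauparCHART2067, was in a peak of 2158 bp with a score of 35.43 whose nearest protein-coding start was that of *Ctnnb1*, the Wnt effector beta-catenin, and the peak upstream of *Svop* held a 12-nt match to PauparCHART428.
Ctnnb1 site, chr9:120688083-120688135: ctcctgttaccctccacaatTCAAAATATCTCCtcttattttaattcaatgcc
Svop site, chr5:114543983-114544034: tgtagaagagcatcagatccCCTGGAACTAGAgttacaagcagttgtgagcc

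All 6-mers, not only those of the oligonucleotides, were then tested in the same central windows and with the same split of peaks. The result is not separate support for the oligonucleotide difference, because a match of 10 nt contains 6-mers of its oligonucleotide. Of 2080 6-mers (both strands merged), 14 (0.673%) differed in the share of central windows that held them, at an adjusted p under 0.05, and all 14 were rarer in wide peaks. AACTGC was found in 22.5% of wide and 35.3% of narrower peaks (odds ratio 0.532, adjusted exact p = 3.3e-05), AAACTG in 30.6% and 41.8%, AGAAAC in 33.8% and 44.5%, AGTTTC in 25.7% and 35.6%, and ACTGCT in 27.7% and 37.6%. The next were CTCTCA (37.9% and 47.8%), AATCCA (16.2% and 24.3%), CAAAAC (24.1% and 32.9%), AACAAT (15% and 22.5%) and CTGAGA (39.7% and 49.2%). Of the 14, 9 occur in a *Paupar* capture oligonucleotide and 8 of these in PauparCHART2041, in a family where 75 of all 6-mers (3.61%) do, as counts that overlap, since neighbouring 6-mers share letters. The count fell to 2 in the central 200 bp or at a score of at least 10, and to 1 without the repeated peaks described below, all of them in a capture oligonucleotide. Some 222 6-mers had an unadjusted p under 0.05.

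None of the 22 motifs, which were transcription factor sites and dinucleotide repeats of CA and GA, differed between the classes after adjustment. The lowest p was for AP-1 (TGANTCA), present in 13.2% of wide and 17.7% of narrower centres (odds ratio 0.709, 0.54 to 0.941, adjusted exact p = 0.34). The neural E-box CAGCTG followed with 20% and 24.3% (0.776, 0.614 to 0.986, adjusted exact p = 0.413). The core CACGCNTNA of the PAX6 paired domain site was present in 1.98% and 1.28% (1.55, 0.79 to 3.26, adjusted exact p = 0.628), the homeodomain site TAATTA in 9.88% and 10%, and the SOX motif in 6.13% and 7.21%. These motifs were searched on both strands, and a missing match says only that the letters are absent from the window.

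Repeated sequence was more common in wide peaks. It was measured as the share of the central 500 bp inside 12-mers that occur more than once in that window, a measure added after seeing the data. In 61 wide peaks (12.1%) and 112 narrower peaks (4.78%) at least 50% of the centre was repeated, an odds ratio of 2.73 (1.97 to 3.8, Fisher's exact p = 1.3e-08). Outside windows reached this limit in 3.16% and 1.56%, so the surroundings of wide peaks were also more repeated, by less. By width the share was 10.4% at 1001 to 1500 bp, 7.62% at 1501 to 2000 bp, 16.7% at 2001 to 3000 bp and 21.8% above 3000 bp, with intervals that overlap between neighbouring classes. Within quartiles of the score the odds ratio was 1.78, and with 1 peak per run within 10 kb it was 3.07. In peaks shorter than 500 bp the window also takes in sequence outside the peak, so the classes are not measured alike. In the central 200 bp the odds ratio was 2.13 (11.5% of wide and 5.72% of narrower peaks). Most wide peaks held little repeated sequence, with a median of 0%.

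**Figure D5:**
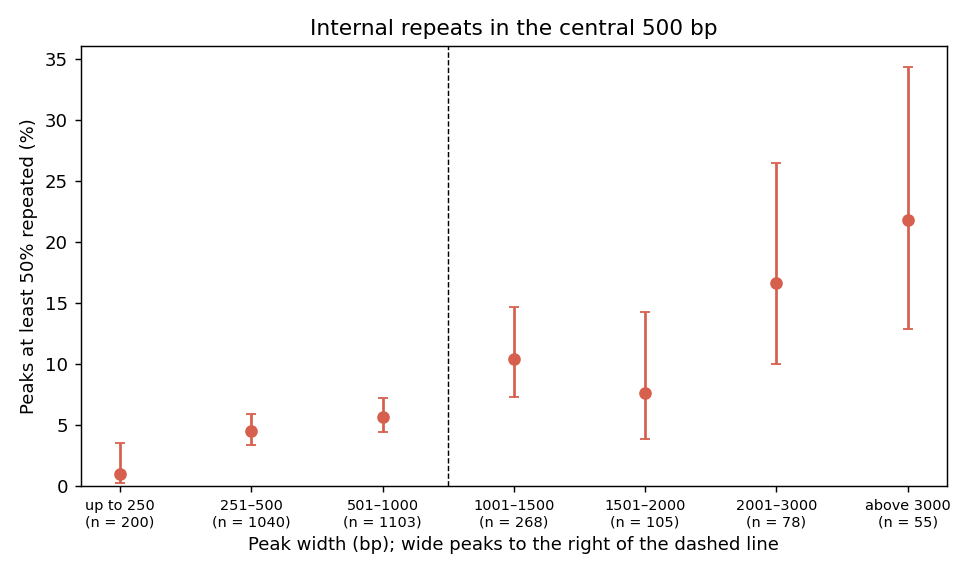
Share of peaks of which at least 50% of the central 500 bp lies in 12-mers that occur more than once in that window, by class of peak width, with 95% Wilson intervals and the number of peaks per class. The share is 1% for peaks up to 250 bp and 21.8% for those above 3000 bp. In peaks shorter than 500 bp the window also takes in sequence outside the peak.

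Repeats were also more common in runs: 19 of the 76 wide peaks in a run (25%) and 42 of the 430 others (9.77%) were at least 50% repeated. The 5 peaks at *Gm17379* on the X chromosome, neighbours at a single locus, are all among the 19. They shared 31 bp as the most frequent spacing of their repeats, the length of the unit printed above. In the one of 5396 bp 82.1% of the interval was repeated, and in the one of 4807 bp 95.4%. Other wide peaks of more than 3000 bp with repeated centres included the peak of 5692 bp on chromosome 8 that the study cloned under the name *Sox1* (66.3% of the interval), near *Gm7157* (91%, 19 bp, score 11.11), near *Gm10654* (91.8%, 76 bp, score 7.32), upstream of the LIM homeodomain gene *Lhx5* (71.6%, 19 bp, score 9.58), near *Zfp872* (58.5%, 23 bp, score 28.69) and near *Hephl1* (46.9%, 18 bp, score 34.19). Their scores ran from 7.32 to 135.15.

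Reads were kept by the authors only where they had a single best position, so the number of copies in the genome bears on what can be seen. Every 50-mer of the central 500 bp was present once in the mm9 genome in 365 wide (72.1%) and 1904 narrower peaks (81.3%), an odds ratio of 0.597 (0.478 to 0.743, exact p = 8.1e-06). The 2 long peaks at *Gm17379* had 53.9% and 28.4% of their 50-mers in a single copy, the *Sox1* site 78.7% and the peak near *Hephl1* 35.3%, against 100% at *Scn8a*, *Peg10* and *Mettl21d*. Among peaks with less than 50% repeated sequence the difference was smaller, 80.4% against 84.7% (odds ratio 0.745, exact p = 0.0284). What part repeats or copy number have in the width of a peak was not tested.

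The study amplified or cloned several of these sites, and its primers place them in the genome. The fragment cloned under the name *Sox1* spans 1609 bp of chromosome 8, from 12129063 to 12130671, inside the wide peak of 5692 bp, and its forward primer has 12 exact sites in the genome. The fragment cloned as *Hes1*, of 2135 bp, ends with the peak of 2391 bp on chromosome 16, and its forward primer has 7 sites. Both reverse primers have 1 site.

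Binding site primers lie in the same *Hes1* and *Sox1* peaks and in 2 more wide peaks, and each of these primers has a single exact site. The product named *Sox2* down is in a peak of 3172 bp with a score of 34.59, 577 kb downstream of the start of *Sox2*. The product named *Ctnnb1* is in the peak that holds the 13-nt match, upstream of that gene. The products are printed because they are the stretches of wide peaks that the study assayed by PCR, with the primer sites in capitals, on the plus strand of mm9.
Hes1 down, chr16:30144854-30145021: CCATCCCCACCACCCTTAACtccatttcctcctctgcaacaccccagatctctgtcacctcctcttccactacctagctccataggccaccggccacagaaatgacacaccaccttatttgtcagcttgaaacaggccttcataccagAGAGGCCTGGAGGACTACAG
Sox2 down, chr3:35124429-35124500: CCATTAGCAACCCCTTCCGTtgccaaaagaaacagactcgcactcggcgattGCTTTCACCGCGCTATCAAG
Sox1 up, chr8:12129327-12129413: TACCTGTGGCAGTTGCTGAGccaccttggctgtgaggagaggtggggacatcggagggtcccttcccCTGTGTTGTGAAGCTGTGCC
Ctnnb1, chr9:120687230-120687308: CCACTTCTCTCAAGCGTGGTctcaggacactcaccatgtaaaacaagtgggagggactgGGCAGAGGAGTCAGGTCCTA

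Genes were tied to peaks through regulatory domains, each reaching 5 kb upstream and 1 kb downstream of a start and then out to the neighbouring domain, by 1 Mb at most. By this rule 852 of 22380 protein-coding genes (3.81%) had a wide peak, 82 of them at least 2. Long domains take more peaks: the median domain was 89.5 kb for all genes and 244 kb for genes with a wide peak, so the median domain is given beside each list below and no list was tested. Most wide peaks (443 of 506) lay in the domains of more than 1 gene.

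Of 19 Sox genes, high mobility group factors that set neural and other progenitor fates, 4 had a wide peak (21.1%, median domain 245 kb). The annotation used has no gene named *Sox1*. The wide peak of 5692 bp that the study cloned under that name is therefore not counted in this list. That of *Sox9* lay 2.13 kb upstream of the start (1004 bp, score 20.03), and those of *Sox11*, *Sox4* and *Sox2* lay 39.9, 496 and 577 kb away. Of 109 other homeodomain factors 10 had one (9.17%, median domain 253 kb). The nearest was 45.2 kb downstream of *Lhx3* (1317 bp, score 12.38), followed by *Lhx5*, *Pax7*, *Pax6*, *Nkx6-2* and *Pax8*. The *Pax6* one lay 120 kb upstream of the gene on the chromosome that *Paupar* shares with it, from 105387531 to 105390000 (2470 bp, score 19.32).

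Of 36 neural basic helix-loop-helix factors 2 had a wide peak (5.56%, median domain 141 kb): *Hes1*, a repressor of neuronal differentiation (79.6 kb downstream, 2391 bp, score 11.2), and *Atoh1* (143 kb). Of 35 Notch pathway genes 3 had one (8.57%, median domain 99 kb), *Lfng*, which modifies the receptor (23.8 kb upstream, score 21.83), the receptor gene *Notch3* (49.1 kb, score 7.84) and the target *Hes1*. Of 63 Wnt pathway genes 3 had one (4.76%, median domain 223 kb), the receptors *Lgr5* (13.7 kb, in an intron) and *Ror2* and the effector *Ctnnb1* (151 kb). Of 59 TGF-beta and BMP genes 1 had one, *Smad2* (1.69%, median domain 260 kb). Of 26 stem cell maintenance genes 4 had one (15.4%, median domain 205 kb), led by *Stat3* (8.26 kb, score 18.78).

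Of 76 voltage-gated ion channel genes 7 had a wide peak (9.21%, median domain 197 kb). Beside *Scn8a* these included the calcium channel genes *Cacna1i* (45.6 kb, score 11.76), *Cacna2d2* (52.1 kb, 9.83) and *Cacna1b* (129 kb, 52.03), the potassium channel gene *Kcnh2* (160 kb, 36.84), and *Cacna1e*. Of 76 axon guidance genes 7 had one (9.21%, median domain 258 kb), led by the Eph receptor *Epha10* (10.8 kb, score 14.88), the semaphorin *Sema4c* (62.6 kb) and *Ephb3* (94.9 kb), with *Sema5b*, the netrin receptor *Unc5a* and the semaphorin receptor *Nrp1* further out. The scores of the axon guidance peaks ran from 6.44 to 20.89.

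Of 49 histone demethylase and polycomb genes 4 had a wide peak (8.16%, median domain 121 kb): *Eed* (23.7 kb) and *Ezh2* (55.3 kb, score 37.99), subunits of the complex that methylates histone H3 at lysine 27, the demethylase *Kdm4a* (81.9 kb) and *Jmjd1c* (584 kb, score 46.7). Of 67 cadherins 4 had one (5.97%, median domain 201 kb), led by *Pcdh1* (3.13 kb upstream). Of 98 neurotransmitter receptors 3 had one, *Chrm1*, *Drd3* and *Drd5* (3.06%, median domain 201 kb), and of 67 growth factor genes 3, *Pdgfb*, *Nrg2* and *Fgfr1* (4.48%, median domain 189 kb). Of 68 cell cycle genes 1 had one (1.47%, median domain 114 kb), *Cdk18*, with a peak of 3172 bp in an intron 7.07 kb from its start and a score of 68.94.

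The genes with the most wide peaks in their domain were *Gm17379* (5, total width 16927 bp), *1700018L24Rik* and *A230072I06Rik*, which share 4 on chromosome 8 (12678 bp, among them the *Sox1* site), and *Dusp4*, a phosphatase of MAP kinases, and *Gm4889*, which share another 4 (8395 bp). *Slc4a8*, *Gm853* with *Serinc2*, and *Med13l* with the T-box gene *Tbx3* had 3 each. They were not the only genes with 3, since *Smad2* also had 3, and those named were taken by total width. The *Tbx3* and *Med13l* peaks had scores of 9.59 to 41.16, those of *Slc4a8* ran from 11.77 to 305.37.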

How the data were processed

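CHART-Seq libraries of N2A cells were grouped by their labels. The authors aligned read pairs to mm9 (bowtie), ran MACS2 for peak calling, kept what was found against *LacZ* and against input, and deposited 1 list with an interval and a score per peak. The kind of score, and how the pull-downs' calls were joined, are not given in the sources used here. No per-library value was used, the depth is unknown, and intervals cover counting error only.

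Peaks above 1000 bp were set against the rest. Positions, genes (GENCODE annotation) and sequence come from NCBIM37, the assembly that mm9 denotes. Territory and distance use the midpoint, sequence measures the central 500 bp, whatever the width: 1238 narrower peaks are shorter than this window. Fisher's exact test was two-sided, with Benjamini-Hochberg adjustment within each family and a threshold of 0.05. Wilson or log odds intervals are at 95%. Stratified odds ratios are Mantel-Haenszel. The steps were tested on simulated data.

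The members, gene lists, motifs and tests were chosen with earlier results of these data known. Named items follow a rule: the 10 widest peaks, the 10 highest scores, 5 peaks on each side of the limit, all 32 at gene starts, peaks with the study's primer products, up to 6 members per gene list by distance, the 10 genes with the most wide peaks, items past the threshold and the 10 6-mers with the lowest p. The *Mettl21d*, *Hephl1*, *Gm10654* and *Zfp872* repeats, the peaks on coding sequence, the *LacZ* matches, the *L3mbtl1* and *Prkaa1* matches and the runs were named after their values were seen. A few items under this rule are not reported here. Tests ran in Python 3.11.15 with scipy 1.17.1 and statsmodels 0.14.6, on tables held in pandas 2.3.3 and numpy 2.4.6, and matplotlib 3.10.9 drew the plots.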

Additional observations from a re-analysis of the deposited data

How the results depend on the processing

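No paired analysis was possible because the deposited list is a single one for both *Paupar* pull-downs and has no columns per library, and for the same reason no library could be left out. The 2 territories that differed became 1 with wide peaks above 1500 bp (coding sequence) and 0 with a limit of 800 bp, at a score of at least 10, without chromosome 8, and within quartiles of the score or of GC content. No chromosome differed, except 1 with wide peaks above 1500 bp (X), where the count includes the 5 neighbouring peaks at *Gm17379*. For neighbours within 100 kb the odds ratio passed the threshold at 1.47 above 1500 bp, 1.36 above 800 bp, 1.27 without chromosome 8, 1.89 at 10 kb and 3.11 at 1 kb, and did not at a score of at least 10 (1.16) or within score quartiles (1.13). The 1 composition measure that differed (GC) became 0 above 1500 bp, at a score of at least 10 and within score quartiles. Of 5 oligonucleotide calls 3 passed at a score of at least 10 (PauparCHART428, PauparCHART2041 and any). With matches of at least 11 nt PauparCHART2041 and any still passed, while PauparCHART254 and PauparCHART428 did not. Over the whole interval the length searched is tied to the selection on width and no test is read. There 3 odds ratios reversed, to 1.81 (PauparCHART254), 1.96 (PauparCHART428) and 1.67 (any). The *LacZ* odds ratio fell to 1.47 with matches of at least 9 nt and has no finite value with a limit of 800 bp, in the central 200 bp or with matches of at least 11 nt. The 14 6-mers became 2 in the central 200 bp, 2 at a score of at least 10 and 1 without repeated peaks. Genes with a wide peak numbered 852, 465 by nearest start only and 558 with domains of at most 100 kb. The odds ratio for starts within 5 kb was 1.01 with a limit of 800 bp, and within 1 kb 1.22 from the nearest edge of the peak, neither past the threshold. The cause of these changes was not tested. The repeats, the single-copy share and the share of any oligonucleotide match in the centre kept their direction and call in each alternative run on the centre. The measures of repeats and single-copy sequence, with their alternatives, neighbours at 1 kb, the whole-interval search and the removal of repeated peaks were chosen after seeing the data. Without depth or values per library, the error of a single peak's width or score is unknown.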
